A study of Mus musculus with 4 samples.

Results

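Long sense chimeras read miRNA first are AGO2-CLASH reads in which a miRNA is followed by a piece of another RNA. They were chosen by the deposited alignment positions, which give the orientation, length and order of the segments in each chimeric read. The miRNA had to be aligned in its own direction over at least 16 nt, the transcript in its own direction, and the miRNA segment had to come before the transcript segment in the read. Of 29067 distinct chimeric reads, 3766 met the rule, and of 36318 chimeric reads counted as often as they were sequenced, 4718 did. Mouse mesangial cells (MMC), the contractile support cells of the kidney glomerulus, were isolated from WT mice and from homozygous miR-379KO mice, both C57BL/6J, and grown in RPMI 1640 with 10% fetal bovine serum and no further treatment. The miR-379KO mice carry a 36 bp deletion at miR-379 made with CRISPR-Cas9 nickase. RNA was fixed to protein by UV light (50 J/m2), pulled down with an Ago2 antibody, joined with T4 RNA ligase and sequenced. There were 2 libraries of each genotype, called WT A, WT B, KO A and KO B below, and where 4 values follow one another they stand in that order. The sample labels do not say whether A and B came from separate mice or cultures, so the p-values below measure the spread between these libraries only.

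AGO2 holds a miRNA so that its seed, the bases next to the 5′ end, is exposed for pairing with target RNA. Pairing at the seed is the commonest mode of recognition in animals, and pairing at the 3′ part of the miRNA can add to it. In CLASH the 3′ end of the miRNA is ligated to the 5′ end of the target fragment, or the other way round, and the order of the segments in the read records which ends were joined.

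Mature miRNAs of pairs described below are shown first, 5′ to 3′, with bases 2 to 8 (the seed) in capitals. The sequences are those of RefSeq on GRCm38.p6, which held 251 of the 305 miRNAs listed in the class. miR-690 is shown because it alone gave 2300 of the 4718 reads.
miR-690: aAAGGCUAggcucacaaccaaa
let-7b-5p: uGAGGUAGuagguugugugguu
let-7c-5p: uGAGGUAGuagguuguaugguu
let-7a-5p: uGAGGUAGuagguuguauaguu
miR-6240: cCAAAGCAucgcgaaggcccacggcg
miR-2137: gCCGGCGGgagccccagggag
miR-6239: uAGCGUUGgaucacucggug
miR-149-3p: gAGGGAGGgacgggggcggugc
miR-125b-5p: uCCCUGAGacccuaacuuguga
miR-365-3p: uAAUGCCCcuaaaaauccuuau
miR-29a-3p: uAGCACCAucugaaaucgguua
miR-23a-3p: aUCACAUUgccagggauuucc
The 3 let-7 sequences share 1 seed and differ in the bases near the 3′ end, and no other 2 of these miRNAs share a seed.

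Target stretches that recurred in the class are given next, as the GENCODE transcripts of GRCm38 have them, each 30 bases long. In the first 3, which stand for the targets of miR-690, the capitals mark the complement of miR-690 bases 9 to 20. The sites are Arcn1 at chr9:44748380-44748409 (minus strand), Fn1 at chr1:71604465-71604494 (minus) and Echs1 at chr7:140113611-140113640 (minus).
Arcn1: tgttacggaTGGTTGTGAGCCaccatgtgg
Fn1: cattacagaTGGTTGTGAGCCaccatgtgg
Echs1: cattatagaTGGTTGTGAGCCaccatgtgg
In the next set the capitals mark the complement of bases 2 to 7 of the miRNA named. For let-7 on Thbs1 they also take in the A opposite base 1 and the complement of bases 13 to 20. The sites are Thbs1 at chr2:118126517-118126546 (plus, 3′ UTR), Fbln2 at chr6:91234258-91234287 (plus, coding), Cxcl12 at chr6:117181172-117181201 (plus, 3′ UTR), Mir5099 at chr12:36816240-36816269 (plus, noncoding), and Gm42418 at chr17:39847462-39847491 and chr17:39847272-39847301 (plus, noncoding).
Thbs1, let-7: ggtggaacttCTATACAAatatTACCTCAt
Fbln2, let-7: ataccccagcatccacagttgcTACCTCga
Cxcl12, miR-23: tttcagttctgtctcccagataATGTGAaa
Mir5099, miR-29a: ggtaatgggcttagatcgatgtGGTGCTcc
Gm42418, miR-2137: cggcggcgttattcccatgaccCGCCGGgc
Gm42418, miR-365: atgattaagagggacggccgggGGCATTcg
The last set holds recurrent targets without the seed match, in which the capitals mark the longest stretch complementary to the 3′ part or middle of the miRNA. They are Actn1 at chr12:80174486-80174515 (minus, coding; let-7 bases 11 to 20), Gas5 at chr1:161038315-161038344 (plus, noncoding; let-7b bases 12 to 19) and Snord71 at chr8:109839308-109839337 (plus, noncoding; miR-6239 bases 7 to 16).
Actn1, let-7: gcaccaacccCTATACAACCatcacgcctc
Gas5, let-7b: catgatgatctCACACAACttgaactctct
Snord71, miR-6239: atgaagtaagGAGTGATCCAtcggctaagt

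The class held 1895 of the 16324 chimeric reads of WT A (11.6%, with a 95% interval by Clopper-Pearson from 11.1 to 12.1) and 1047 of 7192 in WT B (14.6%, 13.8 to 15.4). It held 842 of 6326 in KO A (13.3%, 12.5 to 14.2) and 934 of 6476 in KO B (14.4%, 13.6 to 15.3). WT A had the lowest share and WT B the highest, so the genotypes overlapped, and the mean share was 0.783 points lower in WT (exact permutation test over the 4 libraries, two-sided p = 1). The difference (WT minus miR-379KO) was -1.89 points without miR-690 (exact p = 0.667), -1.71 for reads listed with 1 miRNA and 1 gene (exact p = 0.333) and -1.67 without ribosomal RNA targets (exact p = 0.667). The reads carry no molecular identifiers, and these intervals cover counting error only. A count of 0 in a library allows up to 3 reads, which is 15.8 per 10000 class reads in WT A and 35.6 in KO A. Over all libraries there were 3643 different sequences, of which 102 were found in more than 1 library. Among 8 mesangial marker genes, class reads were found for Acta2 alone, which encodes smooth muscle actin (1, 12, 4 and 4 reads). No class read was listed with a podocyte, endothelial, tubular or leukocyte marker, which at this depth is no test of the cell type.

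The rule set the length and order of the segments, so these are given only as a description. The median miRNA alignment was 22 nt and the median target segment 58 nt. Just inside the limit, 151 distinct reads had a miRNA alignment of 16 nt, and 23.2% of them started at base 1 of the miRNA. Just outside it, 365 reads of the same order had 15 nt, and 16.7% started at base 1. The match to miRNA bases 2 to 7 went up and down with the length, with 32.2% at 14 nt, 20.8% at 15 nt, 33.8% at 16 nt and 21.9% at 17 nt.

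miR-690 dominated the class in every library. It accounted for 1131 reads from WT A (59.7%), 457 in WT B (43.6%), 318 in KO A (37.8%) and 394 in KO B (42.2%). The share was highest in WT A and the other 3 libraries lay within 6 points of each other, and the counts gave a log2 fold change (WT over miR-379KO) of 0.20 with a standard error of 0.71 (edgeR adjusted p = 0.999). RefSeq places mature miR-690 at chr16:28599940-28599961 on the minus strand of GRCm38. Its segments were nearly uniform. Of 1835 distinct reads, 1754 had the whole 22 nt, 99.1% started at base 1, and 96.2% began at the first base of the read.

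The targets joined to miR-690 shared a short sequence rather than a gene. The reads were listed with 656 genes, and 58.9% of the distinct reads were listed with 1 gene, 35.1% with 2 to 9 and 5.99% with 10 or more, up to 67. The genes of highest rank were Arcn1, which encodes a subunit of the coat of Golgi vesicles (39, 12, 12 and 18 reads), Zmynd8, a chromatin reader, Gas2l3, a cytoskeletal linker, Gm43980 and a gene model named after a clone. These 5 were largely the same reads, as 55 of the 67 distinct reads listed with any of them were listed with all 5. Snhg11 (28, 18, 9 and 14 reads), Echs1 and Fn1 were joined to miR-690 by other reads, none of which was listed with Arcn1. Snord65, a snoRNA, had 47, 0, 0 and 14 reads with miR-690, so they came from 1 library of each genotype.

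The 12 bases TGGTTGTGAGCC, the complement of miR-690 bases 9 to 20, stood in 74.2% of the target segments of miR-690. By library the shares were 73.8%, 75.9%, 78.0% and 71.7%. The same bases stood in 0.104% of the class segments without miR-690. The longest complementary run had a median of 12 bases, while the match to the seed (bases 2 to 7) was present in 4.63% of the segments. On the genome, 96.5% of the placed miR-690 target segments were soft-masked as repeats, against 16.8% of the segments of the other miRNAs. Of 1792 placed miR-690 reads, 317 were placed on coding transcripts, and 87.7% of these lay in the 3′ UTR. The other placed reads were on noncoding transcripts.

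Between miR-690 and its target, the read usually held 2 or 3 further bases. No base lay between the segments in 2.94% of the distinct reads, 2 bases in 37.9% and 3 bases in 17.5%. Among the 1770 reads aligned to the end of miR-690, 97.6% went on with AA and 76.9% with AATA. Where these bases come from was not tested.

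Without miR-690, 2418 reads of 1931 distinct sequences were left, with 764 reads in WT A, then 590 in WT B, 524 in KO A and 540 in KO B. They were listed with 304 miRNAs, of which 158 had 1 read and 39 were present in all 4 libraries. The 10 miRNAs of highest count after miR-690 were let-7b-5p (213 reads), miR-145a-5p (205), let-7c-5p (118), miR-6240 (117), miR-2137 (104), miR-709 (91), miR-6239 (77), let-7a-5p (63), miR-149-3p (58) and miR-125b-5p (57, with miR-365-3p at the same count). let-7b-5p had 23 reads in WT A, then 66 in WT B, 62 in KO A and 62 in KO B. miR-145a-5p, which is abundant in smooth muscle and other contractile cells, had 67, 47, 54 and 37. miR-6240 had 68, 12, 15 and 22, so that most of its reads came from WT A. Between the genotypes, the log2 fold change was -0.83 for let-7b-5p (standard error 0.75), -0.44 for miR-145a-5p (0.75) and -0.07 for miR-6240 (0.75), and the edgeR adjusted p was 0.999 for each.

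**Figure D1:**
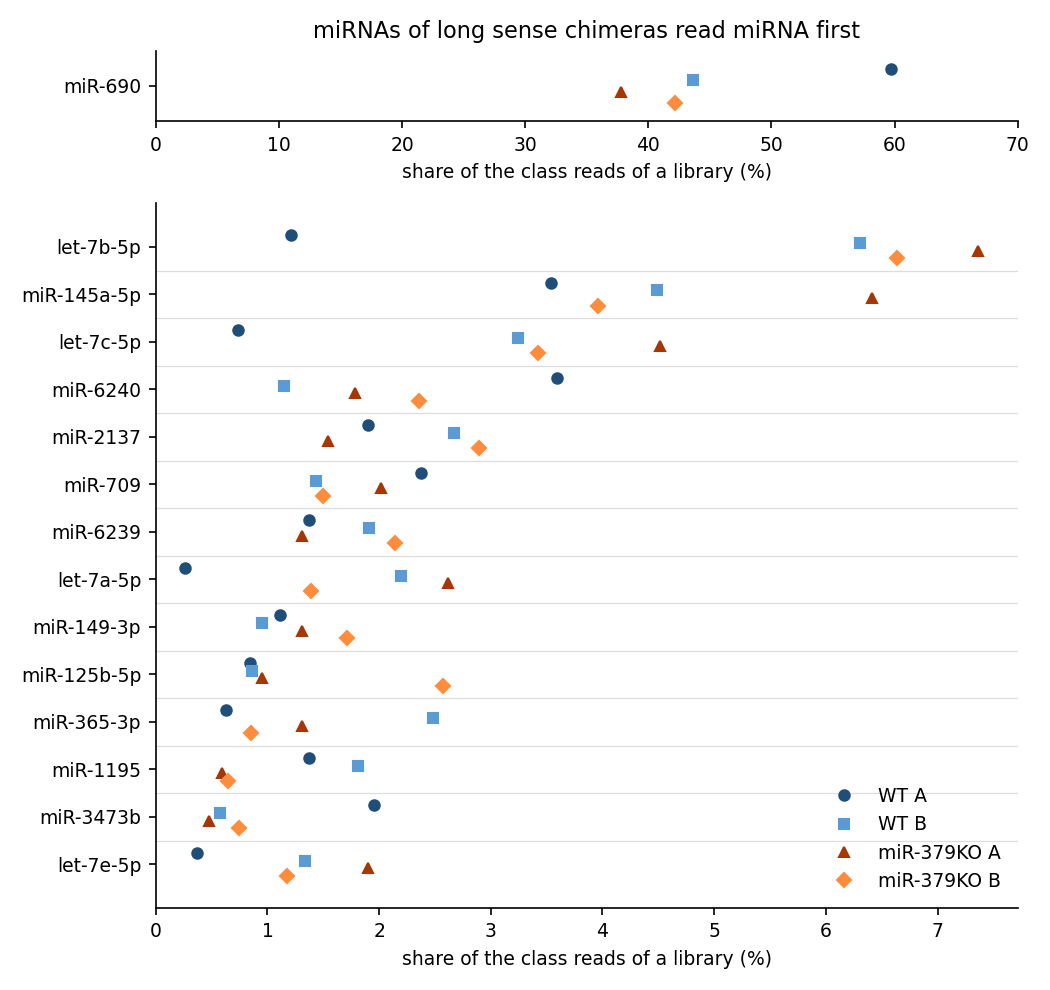
Share of class reads (percent of the library) listed with each of the 15 miRNAs of highest count, 1 point per library, with miR-690 in a panel of its own scale. miR-690 lies between 37.8 and 59.7%, and the let-7 members are lowest in WT A.

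The let-7 family, regulators of differentiation and growth that share 1 seed, had 526 class reads over 9 members. Its reads numbered 62 in WT A, then 163 in WT B, 158 in KO A and 143 in KO B. As a share of the reads without miR-690 this was 8.12%, 27.6%, 30.2% and 26.5%, so WT A stood apart from the other 3 libraries, its own genotype included. In 98.8% of the 403 distinct let-7 reads the segment started at base 1, and in 45.9% the target followed with no base between. The seed match was present in 41.2%.

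The list of vascular and mesenchymal miRNAs names 21, and 22 mature arms from it had class reads, 556 in all (130, 152, 141 and 133), while miR-29c had none. This was 17% of the reads without miR-690 in WT A, and 25.8%, 26.9% and 24.6% in the others, so WT A was the lowest, as for let-7. miR-199a-3p and miR-199b-3p have the same mature sequence, so the same reads (7, 2, 2 and 7) were listed with both and taken once in the total. After miR-145a-5p the highest were miR-125b-5p (16, 9, 8 and 24 reads) and miR-214-3p (5, 22, 10 and 10). The order of the libraries differed between these 2 miRNAs, and no genotype was on the same side in both. Of 16 miRNAs linked to renal fibrosis, 7 had class reads, 80 in all, led by miR-21a-5p (41 reads), miR-29a-3p (23) and miR-30c-5p (5, as for miR-30b-5p). The seed match was present in 72.9% of their 59 distinct reads.

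Of the 69 mature miRNAs of the miR-379 cluster, 7 had class reads. Their reads numbered 4 in WT A, 6 in WT B, 7 in KO A and 8 in KO B, and of these 25, miR-541-5p had 10, miR-667-3p 4 and miR-154-5p 4. miR-379-5p, the miRNA deleted in miR-379KO, had 0 class reads in WT A, then 1 in WT B, 0 in KO A and 0 in KO B. At 1 read the loss of miR-379 in miR-379KO was not detectable in this class.

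The class was listed with 1858 target genes, 959 of them with 1 read, and 206 had reads in all 4 libraries. Without miR-690 there were 1301 genes, 898 with 1 read and 26 with reads in all 4 libraries. Reads listed with several genes were counted under each, and ranks are by reads and not per length of the transcript. The 10 genes of highest rank over all reads were Gm42418 (440 reads), Gm26917 (105), Fn1 (96), Arcn1 (81), Zmynd8 (79), Gas2l3 (78), the gene model named after a clone (77), Thbs1 (77), Gm43980 (75) and Snhg11 (69). Without miR-690 they were Gm42418 (440), Gm26917 (105), Thbs1 (77), Gas5 (61), Fn1 (45), Gm25789 (35), Lars2 (34), Gm23212 (26), Actn1 (26) and Mir5099 (24). Leaving out miR-690 thus removed 6 of the first 10 genes and 51 of the 96 reads of Fn1.

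**Figure D2:**
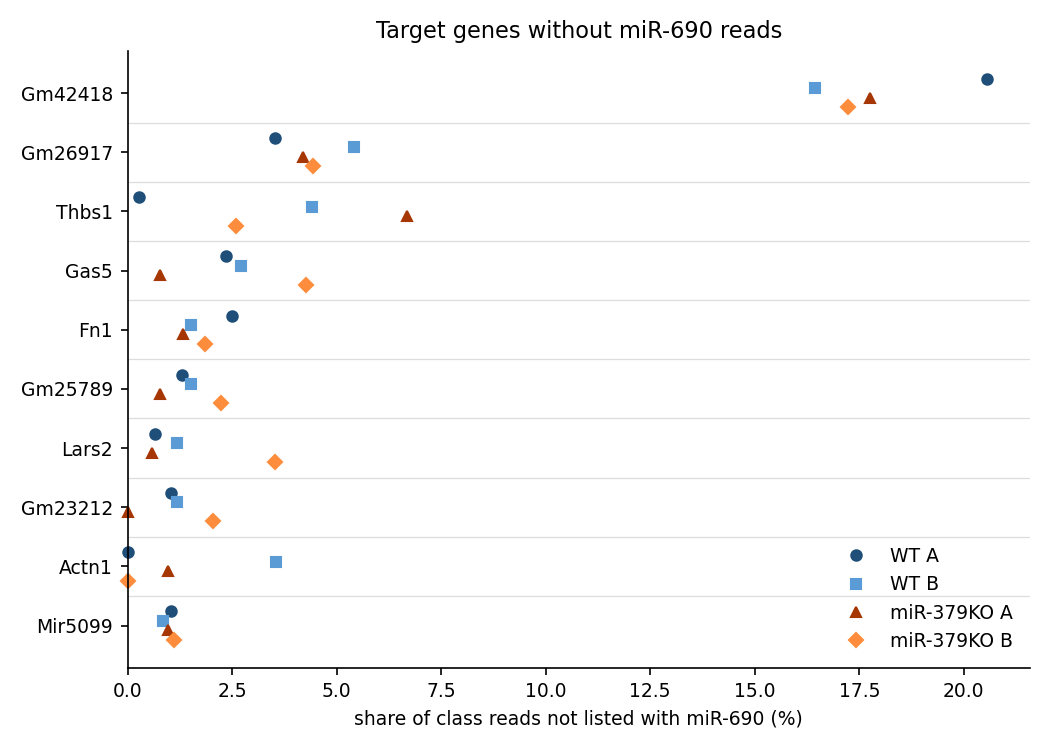
Share of class reads not listed with miR-690 (percent of the library) for the 10 target genes of highest count, 1 point per library. Gm42418 holds between 16.4 and 20.6% in each library, and Thbs1 ranges from 0.262% in WT A to 6.68% in KO A.

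Ribosomal RNA was the largest single source of targets without miR-690. Gm42418 is a noncoding gene that overlaps Rn18s-rs5, a sequence related to 18S ribosomal RNA, in RefSeq, and it had 157 reads in WT A, then 97 in WT B, 93 in KO A and 93 in KO B. Together with Gm26917 (27, 32, 22 and 24 reads) and 2 others it made up 551 reads, between 21.7% and 24.2% of the reads without miR-690 in each library. Its share hardly differed between libraries, and the log2 fold change of Gm42418 was -0.47 with a standard error of 0.51 (edgeR adjusted p = 0.975).

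The miRNAs joined to Gm42418 fell into those with and those without a seed match. miR-145a-5p gave 56, 34, 44 and 28 reads, and miR-6240 gave 32, 9, 12 and 9. In 82 distinct reads of miR-145a-5p and 49 of miR-6240 the seed match was present in 0, and the longest run had a median of 5 bases in both. For miR-2137 (23, 14, 6 and 16 reads) and miR-365-3p (8, 25, 11 and 8) the seed match was present in 97.8% and 97.1% of the distinct reads, with runs of 8 bases from base 2 to base 9. Each of these lay at 1 site, the 2 shown above, with 58 reads at the miR-2137 site and 51 at the miR-365-3p site. miR-149-3p gave 8, 4, 7 and 9 reads with Gm42418, and miR-6239 gave 12, 16, 6 and 6 with Gm26917.

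Thbs1 encodes thrombospondin 1, a matrix glycoprotein that can activate latent TGF-beta. It had 2 class reads in WT A, then 26 in WT B, 35 in KO A and 14 in KO B, none of them with miR-690. WT A was far below the other 3 libraries, and the genotypes overlapped. The log2 fold change was -1.33 with a standard error of 0.81 (edgeR adjusted p = 0.975). Without WT B, which leaves WT A alone in its group and takes its spread from the fit, Thbs1 passed the threshold (edgeR adjusted p = 2.19e-05).

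Of the 77 Thbs1 reads, 71 were with let-7, through 7 members, and all 49 distinct let-7 reads covered the 1 site in the 3′ UTR. let-7a-5p and let-7f-5p gave 15 reads each, let-7b-5p 13, let-7e-5p 11, let-7c-5p 9, let-7g-5p 5 and let-7i-5p 3. Every one of the 49 held TACCTCA, opposite bases 1 to 7 of let-7, and 45 also held CTATACAA, the complement of bases 13 to 20 of let-7a-5p. The capitals in the Thbs1 sequence thus mark 2 stretches, with 4 bases between them. The median energy was -24.4, and 51.0% of the 49 had no base between the segments.

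The extracellular matrix list, 26 genes that MMC can deposit in the glomerulus, had 13 members with class reads and 219 reads in all (66, 52, 58 and 43). After Fn1 and Thbs1, the next was Col1a1, a chain of type I collagen, with 9 reads. Without miR-690 the seed match was present in 65.4% of the 127 distinct reads of this list, against 42.3% of the class, and Thbs1 alone gave 51 matches in 53 reads. Fn1 encodes fibronectin, and its reads without miR-690 numbered 19 in WT A, 9 in WT B, 7 in KO A and 10 in KO B. let-7 gave 22 of them, 10 at 1 coding site with a seed match (0, 4, 4 and 2 reads).

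Among other matrix genes at recurrent sites, Fbln2, which encodes fibulin-2 of the matrix and basement membrane, had 14 let-7 reads at a coding site (0, 7, 2 and 5). Mmp14, a membrane-bound matrix metalloproteinase, had 8 let-7 reads at a coding site (0, 0, 4 and 4), and Plod2, a collagen lysyl hydroxylase, had 5 (0, 0, 3 and 2). The sites of Mmp14 and Plod2 had reads in both miR-379KO libraries and none in WT, at counts within the 3 reads a library that a count of 0 allows or 1 above it.

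The contractile and cytoskeletal list had 13 of 18 members with class reads, 74 reads in all. There were 5 in WT A, 33 in WT B, 20 in KO A and 16 in KO B, so WT A was again the lowest. Acta2 had 21 reads, Actb 13 and Flna, the actin crosslinker filamin A, 10. In the 12 distinct let-7 reads of Acta2 the seed match was present in each, and runs reached from base 1 to base 9.

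Other let-7 targets had no seed match. Actn1, which encodes the actin crosslinker alpha-actinin-1, had 0 reads in WT A, then 21 in WT B, 5 in KO A and 0 in KO B without miR-690, all with let-7. Its 17 distinct reads shared 10 bases complementary to let-7 bases 11 to 20, and none had the seed match. Flna had 5 distinct let-7 reads with a run of 7 bases from base 8 to base 14, again without the seed. Over all class reads of Actn1 (1, 21, 5 and 0) the log2 fold change was 1.57 with a standard error of 1.09 (edgeR adjusted p = 0.975).

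Gas5 is a noncoding RNA whose introns hold small nucleolar RNAs (snoRNAs). It had 18, 16, 4 and 23 reads, of which 58 of 61 were with let-7. The 44 distinct let-7 reads of Gas5 had the seed match in 0 cases and a median run of 8 bases, most often bases 12 to 19. Gm25789 and Gm23212 are snoRNA genes inside Gas5, with 10, 9, 4 and 12 reads for Gm25789 and 8, 7, 0 and 11 for Gm23212. Their counts add up to those of Gas5 in each library, so they cannot be taken as targets separate from Gas5. Among other small RNAs, Snord71 had 17 reads, all with miR-6239 (2, 4, 5 and 6), with a run of 10 bases at miRNA bases 7 to 16. Mir5099 had 24 reads (8, 5, 5 and 6), 23 of them with miR-29a-3p, and each of the 14 distinct reads of this pair had the seed match.

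Lars2 encodes the mitochondrial leucyl-tRNA synthetase, and had 5, 7, 3 and 19 reads without miR-690. At 1 site 15 were with miR-6238 (1, 5, 2 and 7), and Gm15564 holds the same 30 bases and was also listed with 15 (3, 3, 1 and 8). Some reads were listed with both genes and counted under each, so the locus is uncertain. Ribosomal protein genes had 33 class reads over 9 genes, led by Rpl7a (6, 0, 0 and 6), Rpl21 (2, 0, 3 and 2) and Rpl27a (2, 2, 0 and 0). Gm24134 had the same counts as Rpl7a, and Gm25091 the same as Rpl21, so these loci are uncertain as well. Mitochondrially encoded genes had 11 class reads over 4 genes, with 3 each for mt-Nd4, mt-Co3 and mt-Nd2.

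The miRNA segment started at base 1 in 84.2%, 90.8%, 90.1% and 88.6% of the distinct reads of the 4 libraries. In reads of the opposite order, long sense chimeras with the target first, it did so in 69.0%, 83.0%, 84.8% and 83.7%. The share was higher with the miRNA first in 4 of 4 libraries, by 8.28 points on average (exact sign-flip permutation test, two-sided p = 0.125, the smallest that 4 libraries can give). Without miR-690 the shares were 62.8%, 84.8%, 85.1% and 80.6%, and the mean difference turned to -1.12 points, with 2 of 4 libraries above 0 (exact p = 0.75). Without miRNA segments that occur in the genome together with the read bases beside them, described last, the mean difference was 1.33 points, with 0.0116 in KO B. Such segments made up 9.90% of the class and 21.8% of the target-first reads.

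No base lay between the segments in 9.71%, 22.3%, 23.0% and 18.1% of the reads of the 4 libraries. With the target first the shares were 15.9%, 20.3%, 31.2% and 36.3%, a mean difference of -7.64 points that was below 0 in 3 of 4 libraries (exact sign-flip permutation test, p = 0.25). Without miR-690 the shares with the miRNA first were 18.2%, 36.7%, 35.3% and 30.1%, and the mean difference turned to 4.58 points (exact p = 0.5). With miR-690 kept, the difference depended on the setting, from -2.89 points with reads weighted by their count (exact p = 0.625) and -4.42 for reads listed with 1 miRNA and 1 gene to -21.9 at a minimum of 20 nt. It was -11.1 without the segments that occur in the genome and -16.6 without ribosomal RNA targets. Without miR-690, 28.4% of the reads had no gap and 23.9% had 15 bases or more between the segments.

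**Figure D3:**
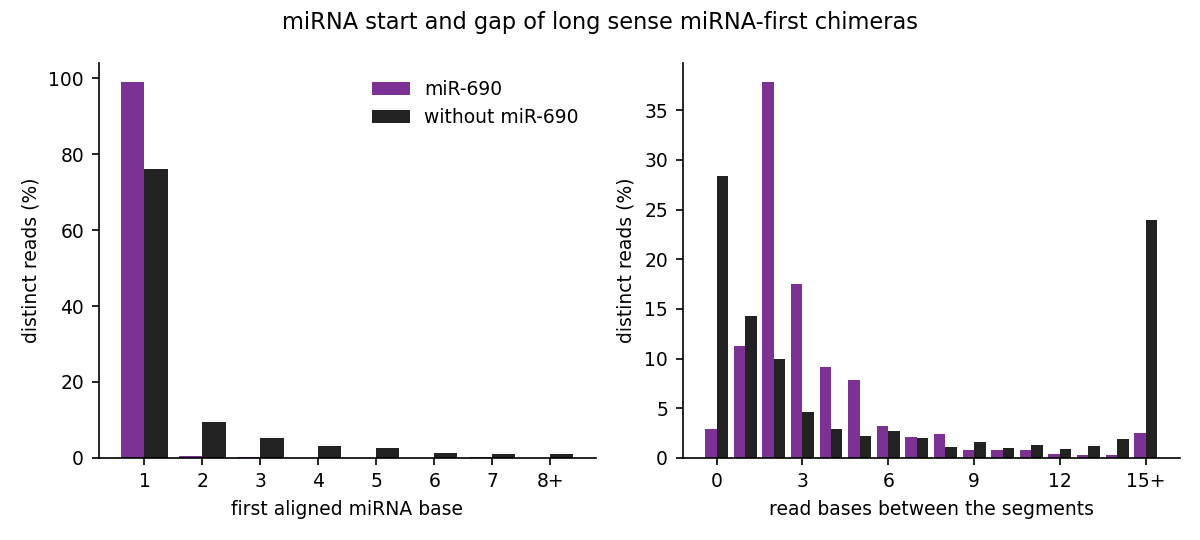
Distinct class reads by the first aligned miRNA base (left) and by the number of read bases between the 2 segments (right), as percent of the 1835 reads of miR-690 and of the 1931 reads without it, over all libraries. miR-690 starts at base 1 in 99.1% and peaks at a gap of 2 bases, while the other miRNAs start there in 76.2% and peak at no gap.

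Complementarity of the target segment to miRNA bases 2 to 7 was measured next, which the choice of reads did not use. It was present in 17.2%, 30.4%, 31.5% and 26.3% of the distinct class reads of the 4 libraries. Without miR-690 it was present in 36.7%, 46.9%, 45.8% and 43.2%. The same 6 bases were found in the segments of the other chimeras of the library in 1.91% to 2.24%, without miR-690. Each library without miR-690 was thus above the level in unrelated segments of the same library, and WT A was the lowest.

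With the target first, the seed match was present in 55.3%, 51.7%, 43.4% and 41.4% of the reads. The share was lower with the miRNA first in 4 of 4 libraries, with a mean difference of -21.6 points (exact sign-flip permutation test, two-sided p = 0.125, the smallest possible). Without miR-690 the target-first shares were 56.8%, 54.8%, 45.0% and 42.6%. The mean difference then shrank to -6.61 points, made by the 2 WT libraries, with the 2 miR-379KO libraries slightly above 0 (exact p = 0.5). Shorter miRNA segments in the same order had the match in 22.8% to 27.6%, and long miRNA segments joined to an antisense target in 15.5% to 20%.

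**Figure D4:**
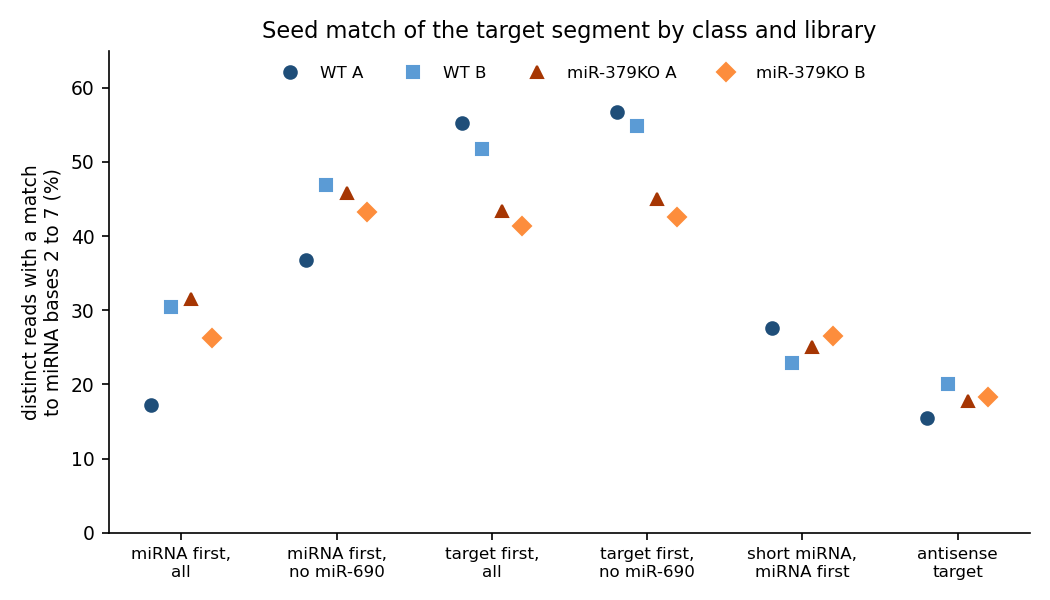
Share of distinct reads whose target segment holds the complement of miRNA bases 2 to 7, by class of chimera and library, 1 point per library. With the miRNA first and miR-690 left out, the 4 libraries lie between 36.7 and 46.9%, against 17.2 to 31.5% with miR-690.

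Between the genotypes, the seed match share of the class was 23.8% ± 9.31 in WT and 28.9% ± 3.72 in miR-379KO (SD, n = 2), a difference of -5.10 points (exact permutation test, two-sided p = 0.667). Without miR-690 it was 41.8% ± 7.21 and 44.5% ± 1.83, a difference of -2.68 points that was smaller than the SD in WT (exact p = 1).

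Along the miRNA, the complement of 6-base windows without miR-690 was most frequent at bases 2 to 7 (42.3%) and 3 to 8 (43.9%), and lay between 11.1% and 15.8% for windows that began at bases 5 to 15. let-7 had a second, lower rise at bases 13 to 18 (21.1%). miR-690 had the opposite profile, with 94.0% at bases 15 to 20. Reads without miR-690 that started at miRNA base 1 had the seed match in 46.7%, and those that started later in 28.0%. Reads on ribosomal RNA had it in 28.0%, and the rest in 45.8%. By gap, the libraries differed. At no gap the seed match was present in 24.4%, 53.3%, 49.6% and 45% of the reads, and at 4 bases or more in 43.3%, 36.6%, 40.7% and 43.1%, so it was higher at the longer gap in WT A and lower in the other 3 libraries.

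**Figure D5:**
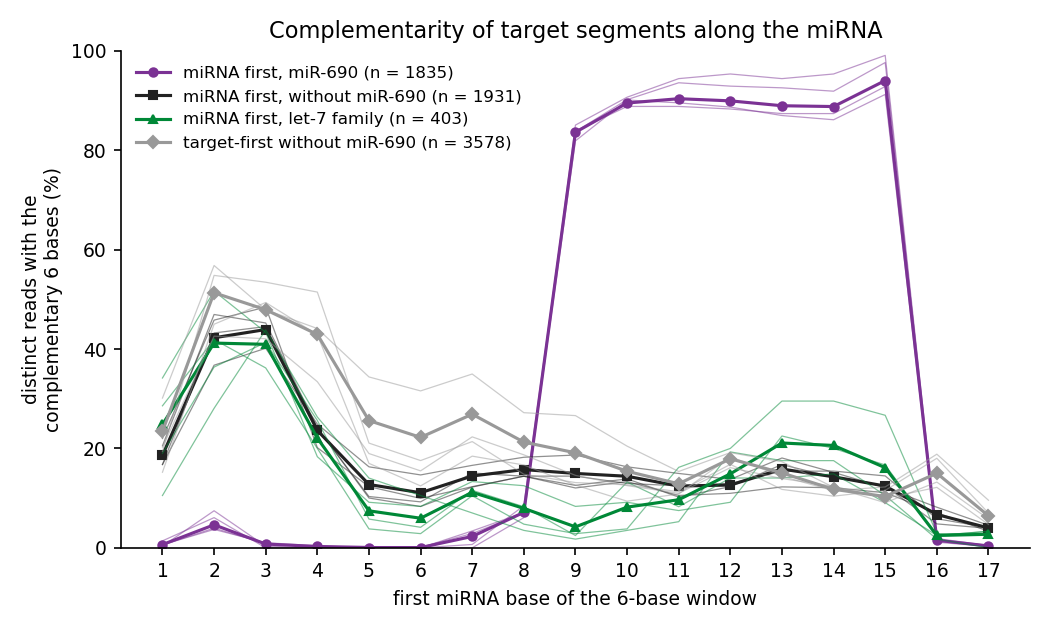
Share of distinct reads whose target segment holds the complement of a 6-base miRNA window, by the first base of the window, for miR-690, for the class without miR-690, for let-7 and for the opposite order without miR-690. Thick lines with symbols are all libraries and thin lines single libraries. The miR-690 profile is high from base 9 to base 15, and the others peak at bases 2 and 3.

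The deposited minimum free energy of the pair, whose unit is not named, was -23.5 in the median in each of the 4 libraries. This value is that of the common miR-690 pair, whose quartiles were also -23.5. Without miR-690 the medians were -24.45 in WT A, -23.16 in WT B, -22.33 in KO A and -22.72 in KO B. With the target first they were -28.85, -27.63, -26.215 and -23.92, so the median over all class reads was less negative than this in 4 of 4 libraries, by 3.15 on average (exact sign-flip permutation test, p = 0.125) and by 3.89 without miR-690. It was 0.776 at a minimum of 20 nt, 1.37 without ribosomal RNA targets and 1.835 for alignments without mismatch, each with 3 of 4 libraries above 0. let-7 had a median of -21.51 and miR-709 one of -31.235.

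Target segments without miR-690 lay in coding sequence and in the 3′ UTR at like shares. Of 938 distinct reads placed on coding transcripts, 52.2% lay in coding sequence, 45.5% in the 3′ UTR and 2.24% in the 5′ UTR. By library, 48.5%, 51.9%, 50.9% and 57.7% lay in coding sequence. With the target first and without miR-690 the shares in coding sequence were 17.5%, 28.4%, 37.4% and 41.0%, lower in each library, a difference that was not tested. The seed match was present in 54.8% of the 3′ UTR segments and 41.6% of the coding segments of the class.

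In all, 825 sites with a seed match were found without miR-690, a gene and its overlapping genes each counted. Reads in at least 2 libraries were found at 52 sites in 40 genes, at 28 sites in at least 3 libraries, and at 14 sites in all 4. Besides the sites of Thbs1, Mir5099 and Gm42418, those in all 4 libraries included a let-7 site of Actg1, a cytoplasmic actin, with 7 reads (1, 1, 2 and 3) that Gm12715 shares, and the miR-6238 site of Lars2 and Gm15564. The same 30 bases stand in Actb, where 8 let-7 reads were listed (0, 3, 5 and 0). Ncbp3, a cap-binding protein, had 13 reads of miR-3473b or miR-3473e at a 3′ UTR site (10, 2, 1 and 0).

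The genotypes were compared with edgeR for each miRNA and each target gene, with the other chimeric reads of the same miRNA or gene in the fit. Over all 644 miRNA counts tested, 0% had an adjusted p-value under 0.05 and 3.88% an unadjusted p under 0.05. In the class 44 miRNAs were tested and 0 passed the adjusted threshold (DESeq2 also gave 0), with 4 at an unadjusted p under 0.05 (1 with DESeq2). For target genes, 0% of 619 counts passed the adjusted threshold and 2.91% the unadjusted one. Of 264 genes tested in the class, 0 passed with edgeR or DESeq2, and 7 had an unadjusted p under 0.05 (1 with DESeq2). The 4 miRNAs were let-7g-5p (1, 0, 7 and 4 reads), miR-5126 (6, 4, 16 and 9) and miR-125a-5p (4, 4, 9 and 10), with more reads in miR-379KO, and miR-706 (25, 5, 1 and 1), with more in WT.

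Cxcl12, which encodes a chemokine that guides migrating cells, came nearest to the threshold among the genes. It was named after its values were seen. It had 0 class reads in WT A, then 0 in WT B, 11 in KO A and 4 in KO B, so the genotypes did not overlap, and the edgeR adjusted p was 0.0512. Of these, 13 lay at the 3′ UTR site shown above and came from miR-23a-3p or miR-23b-3p, 10 in KO A and 3 in KO B. With each distinct sequence counted once it passed the threshold (edgeR adjusted p = 0.00203), as it did in a fit of the class reads alone (0.0123), and in DESeq2 no gene did. KO A gave 11 of its 15 reads. Without KO A its remaining 4 reads fell below the minimum of 10 for a row, so it could not be tested there. With the replicate block the smallest edgeR adjusted p of any class gene was 0.209, and with no minimum count 0.755. The 15 reads are of 11 distinct sequences, and the count in KO B is 1 above what a count of 0 allows. Smchd1, which encodes a chromatin protein of the inactive X chromosome, had the next smallest p, with 9, 8, 0 and 0 reads (edgeR adjusted p = 0.679).

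Whether a miRNA segment and the read bases beside it occur together in the genome was measured last. Each miRNA segment was extended by up to 10 read bases on the side of the target segment and compared with GRCm38. In 9.90% of the distinct reads the extended stretch matched the genome in full outside miRNA genes. Without miR-690 the shares by library were 28.1%, 12%, 8.64% and 9.68%, so WT A, the deepest library, stood apart here as well as in let-7. It was 66.3% for miR-709, 63.8% for miR-1195, 57.4% for miR-3473b and 60% for miR-706, and 76.9% for miR-3473b on Ncbp3. For let-7b-5p, let-7c-5p, let-7a-5p, miR-145a-5p, miR-6240, miR-2137 and miR-6239 it was 0, as it was for let-7 on Thbs1, Gas5 and Actn1. For miR-690 it was 3.05%. Without these reads the difference by order in the start at base 1 went from 8.28 to 1.33 points, that in no gap from -7.64 to -11.1, and that in the seed match from -21.6 to -21.1.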

How the data were processed

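AGO2-CLASH libraries of cultured mesangial cells (2 WT, 2 miR-379KO) were analysed from the chimeric reads of each library. The authors merged the read pairs, removed reads that Bowtie2 (2.1.0, per the submitters' processing notes) aligned to the genome (GRCm38.p5) or to transcripts, searched the rest against miRBase and GENCODE with BLAST, and kept reads with separate miRNA and transcript parts. Reads that matched the genome as a whole were thus gone before deposit. The deposited read counts are whole numbers of merged reads with one sequence, not normalized. The deposited files also give alignment positions, a score of the pair, which was used only as a description and is not printed, and a minimum free energy, whose tool and unit are not given in the sources used here.

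Each distinct sequence was taken once per library, with its count, and all columns of values were assigned to their library. Shares of reads use the counts, and seed, start, gap and energy use distinct reads. Genotypes were compared by an exact two-sided permutation test over libraries, whose smallest p is 0.333, and orders by an exact sign-flip test over the 4 differences within libraries, whose smallest p is 0.125. Counts per miRNA and per gene were tested with edgeR 4.0.16 (TMM, quasi-likelihood F-test, rows of at least 10 reads, Benjamini-Hochberg adjustment over all rows, threshold 0.05), and with DESeq2 1.42.0 as an alternative, in R 4.3.3. The scripts were tested on simulated data. Target segments were placed on GENCODE vM21 transcripts if their first or last 12 nt matched, or at least 90% of bases at equal length. Extended miRNA segments were placed on GRCm38 with blastn 2.17.0 at 100% identity. Other steps used Python 3.11.15, pandas 2.3.3, numpy 2.4.6 and matplotlib 3.10.9.

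Named were the 10 miRNAs, 10 genes and 10 pairs with the most class reads, with and without miR-690, the 3 highest members of each list, any call past the threshold, and miR-379. Other names were chosen after their values were seen. The members and lists were chosen with earlier results of these data known. Alternatives changed the minimum length, mismatches, multiple listing, weighting, seed length, normalization, filter, test, replicate block and libraries.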

Additional observations from a re-analysis of the deposited data

Results flagged for a closer look

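Without miR-690, the difference in seed match share between the orders (miRNA first minus target first) was -20.1 points in WT A and -7.87 in WT B, and 0.828 in KO A and 0.645 in KO B. Both WT libraries lay below 0 and both miR-379KO libraries above it. The difference between the genotypes was -14.7 points. It is given here because the WT libraries and the miR-379KO libraries lay on opposite sides of 0, and it was not tested apart from that choice.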

How the results depend on the processing

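All tests of shares were limited by the number of libraries and none could pass 0.05. Without WT replicate A the WT minus miR-379KO difference turned to 0.692 points for the share of the class and to 1.48 points for its seed match share. Without miR-690 the order difference turned to -1.12 points for the start at base 1 and to 4.58 points for no gap, and with a minimum of 20 nt the start difference turned to -0.192 points. Leaving out 1 library at a time gave -2.26 to 0.692 for the class share, -24.8 to -16.1 for seed match by order, 5.97 to 9.40 for the start, -10.9 to -4.13 for no gap, 2.42 to 4.065 for energy, -11.7 to 1.48 for the seed match share between genotypes, 0 to 0 for miRNAs called and 0 to 1 for genes called. The 1 gene was Thbs1 without WT replicate B. With each distinct sequence counted once, with class reads alone, or with a crossed replicate block, 1 gene passed (Cxcl12). With the replicate letter as a block, 0 miRNAs and 0 genes passed. Same-letter samples deviated with r of -0.178 over miRNAs and -0.185 over genes. With 2 libraries of each genotype these values cannot settle whether the letters pair the samples. The crossed block and the exclusion of segments found in the genome were chosen after seeing the data. Without TMM the median log2 fold change of all genes tested was 0.35 rather than 0.24, and single fold changes move with it. Under the other alternatives, the seed difference by order ranged from -29.8 to -6.61 points, that in the start from 1.33 to 13.1 points, that in no gap from -21.9 to -2.89 points and that in energy from 0.776 to 4.395, without a change of direction. A gene with 0 reads in a library may have up to 3.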
